A study of Sus scrofa with 6 samples.

Results

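Ovary was compared with uterine tissue labelled myometrium in sows at 3 stages, over all genes on the array. All 6 arrays of the series belong to the comparison, 3 of ovary and 3 of the uterine tissue, chosen by tissue label and not by any measured value. Each tissue has 1 array from non-pregnant, 1 from early pregnant and 1 from late pregnant sows, so the arrays form 3 pairs of the same stage. The design text counts 9 pigs, 3 for each stage. The labels name no breed, treatment or day of gestation, and whether an array holds RNA of 1 pig or of several is not stated in the labels. The arrays with the myometrium label are called uterine arrays below, for a reason given with the marker genes. Values are listed throughout in the order non-pregnant, early pregnant and late pregnant.

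The sow's ovary in pregnancy is dominated by corpora lutea, glands formed from ovulated follicles, which make progesterone and store the peptide hormone relaxin until birth. Follicles with granulosa and theca cells, oocytes and a contractile stroma make up the rest. The uterine wall consists of the endometrium, whose epithelium and glands secrete a protein-rich fluid for the conceptus, and of the myometrium, the smooth muscle coat. In pigs the placenta lies against the uterine epithelium without eroding it.

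Expression is given as MAS5 signal, a linear intensity that summarises the probes of a probe set on an Affymetrix array. A signal under 81.7 was replaced by 81.7, called the floor, before taking log2. Such values have no order among themselves, and a fold against a tissue with any floored array bounds the ratio from below and is written "at least". The tissue difference is ovary minus uterine tissue on the log2 scale, averaged over the 3 stages, and a fold is the same quantity off the log scale, a ratio of geometric means. It was tested with limma in a fit of tissue and stage, and a probe set was called at a Benjamini-Hochberg adjusted p under 0.05 over 15882 probe sets. Each tissue has a single array at each stage and no replicate. The printed SE therefore rests on the spread of the 3 stage differences, moderated by limma toward that of other probe sets of like signal (2 residual and 3.75 prior degrees of freedom), and can exceed the spread of a gene's own 3 differences. In bulk tissue, fewer cells of a type and less RNA per cell cannot be told apart.

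The marker genes bore out the ovary label and placed epithelium on the uterine arrays. RLN2, which encodes relaxin, read 11029, 31899.6 and 29660.1 on the ovary arrays and 118, 150.4 and 75.4 on the uterine arrays. INSL3, a relaxin-like hormone of theca and luteal cells, read 3994, 4552 and 3723 and 26.4, 52.3 and 43.4, and LHCGR, the receptor for luteinizing hormone, 2479.9, 3762 and 3309.5 and 11.2, 25.1 and 41.4. The lowest ovary array lay far above the highest uterine array for each of these 3 genes. EPCAM, an adhesion protein of epithelial cells, read 191, 132 and 104 in ovary and 10256, 10845 and 9667 on the uterine arrays, and KRT18, a keratin of simple epithelia, 10.5, 36.7 and 2.7 and 5960.1, 2466 and 5762. The log2 differences were 7.59 ± 0.40 for RLN2, 5.64 ± 0.26 for INSL3, 5.26 ± 0.29 for LHCGR, -6.21 ± 0.26 for EPCAM and -5.75 ± 0.35 for KRT18 (SE of the limma fit, n = 3 stage pairs). All 5 passed, with adjusted p values of 0.00358 for RLN2, INSL3, LHCGR and EPCAM and 0.00368 for KRT18. INSL3 and LHCGR lay under the floor on every uterine array and KRT18 on every ovary array. These genes met the filter only through the tissue in which they are high, and their differences are lower bounds. Their SE and adjusted p hold no spread from the floored tissue. RLN2 lay under the floor on the late pregnant uterine array.

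Smooth muscle genes, of the tissue in the uterine label, leaned to ovary without any call. ACTA2, smooth muscle actin, read 23509, 22689 and 18571 in ovary and 7613, 13313 and 14389 on the uterine arrays. ACTG2, an actin of visceral muscle, read 1994, 5036 and 2014 and 437, 2984 and 3766, and DES, the muscle filament desmin, 193, 494 and 170.1 and 90.6, 70.4 and 175. Of 30 smooth muscle genes, 24 were on the array and 23 were tested. None passed by limma in either direction, and 0 of the 23 had a difference below 0. With 2.94% of all genes called in ovary and 2.52% on the uterine arrays, a list of this size would hold few calls. In 10 of the 23 every ovary array lay above every uterine array, and in 0 the reverse. Over all 15882 probe sets tested, 2410 and 2230 did not overlap. The median difference of the 23 was 0.68, beside 0.03 over all 5673 genes tested. OXTR, the oxytocin receptor of uterine muscle, stayed at or under 79.2 on every array and was not tested. The median of the muscle genes was 0.63, 0.88 and 0.10 at the 3 stages. The term uterine arrays is used because epithelial genes, and no muscle gene, passed in the direction of that tissue.

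More probe sets were 2-fold apart in pregnancy than outside it. Of the 15882 probe sets, 1384 were 2-fold or more higher in ovary at the non-pregnant stage, 1943 at the early and 1876 at the late pregnant stage. On the uterine side the counts were 1343, 1636 and 1915. At all 3 stages, 503 probe sets (3.17%) were 2-fold or more higher in ovary and 411 (2.59%) on the uterine arrays. At both pregnant stages but not the non-pregnant stage, 506 and 611 were. These counts rest on 1 array on each side and carry no test. Over the 5673 genes, the differences at the early and the late pregnant stage correlated at a Pearson's r of 0.762. The non-pregnant differences correlated at 0.536 with the early and 0.441 with the late pregnant ones. These pairs share no array, but genes are not independent replicates, and the value is a description.

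**Figure D1:**
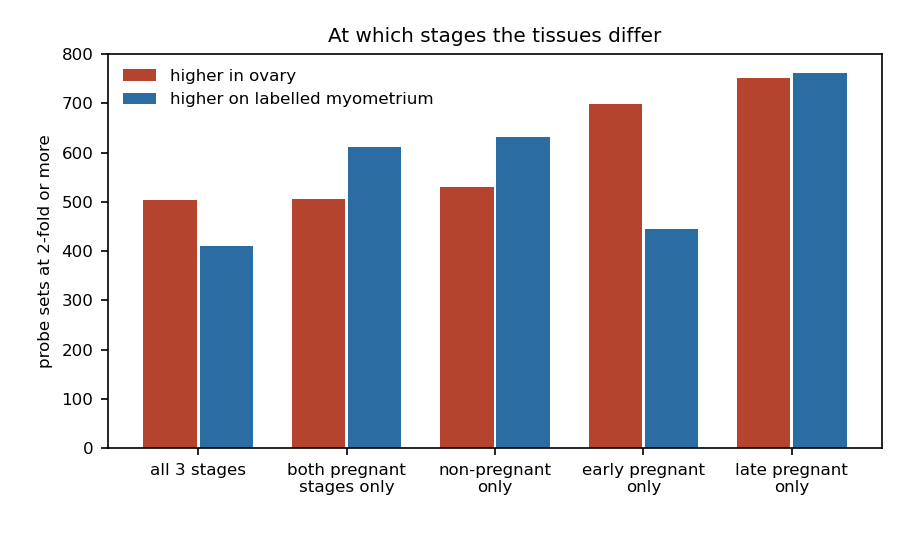
Number of probe sets 2-fold or more apart between the tissues, by the stages at which they were so, out of 15882 tested. Red bars are probe sets higher in ovary and blue bars those higher on the arrays labelled myometrium. The bars for all 3 stages hold 503 and 411 probe sets, those for the late pregnant stage alone 751 and 762.

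The limma test called 451 probe sets (2.84%) with higher signal in ovary and 354 (2.23%) with higher signal on the uterine arrays. With the brightest probe set for each gene, 167 of 5673 genes (2.94%) were higher in ovary and 143 (2.52%) on the uterine arrays. These shares of all genes are the background for every count of called list members. The ovary and uterine arrays did not overlap in 448 of the 451 and 351 of the 354 called probe sets. They did not overlap in 2410 and 2230 of all 15882 tested, and the call itself favours such probe sets. In 76 of the 451 and 126 of the 354, every array of the dimmer tissue lay at the floor, so that they met the filter on low signals only through the tissue in which they are high. The median log2 difference was 2.07 over all 451 called in ovary and -2.49 over all 354 called on the uterine side. No single named gene was given for 227 of the 451 and 187 of the 354, which are counted but not named. The calls moved with the stages used. Without the early pregnant arrays limma called 0 probe sets (1790 had an unadjusted p under 0.05), without the non-pregnant arrays 138 and 260, and without the late pregnant arrays 109 and 118. Each named gene that passed kept its direction in those fits, and each lost its call without the early pregnant arrays. When the filter was applied to the 4 arrays left, 30 of 98 kept their call without the early pregnant arrays, 85 without the late pregnant and 97 without the non-pregnant ones. With no filter on low signals 0 passed by limma (2782 at an unadjusted p under 0.05). With a higher floor of 246.2, 24 of the 98 named genes past the test lost their calls, among them TSPO, ZP4, NR5A1, FSHR, GSTA1, C3, NCAM1, ITIH4, SLC5A4, TFRC, CST6, RBP4, MSX1, HOXA9, MFAP5, ELF3, EHF, SPINT1, MUC4, MPZL3, ADAM28 and SLCO1A2. At that floor 72 kept their calls, and AMH and TGFA were too dim to be tested.

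Relaxin and some other hormone and receptor genes of the corpus luteum were higher in ovary. Relaxin was at least 193-fold higher in ovary, INSL3 at least 49.9-fold and LHCGR at least 38.4-fold. PTGFR, the receptor through which prostaglandin F ends the life of the corpus luteum, read 6982, 14853 and 16721 in ovary and 336, 1319.9 and 3436 on the uterine arrays (10.4-fold higher in ovary, adjusted p = 0.0152). By this brightest probe set the uterine signals lay in the order of stage. The difference was 4.38 on the log2 scale at the non-pregnant and 2.28 at the late pregnant stage. A dimmer probe set of PTGFR, also called (difference 3.90, limma adjusted p = 0.0279), did not show that order of differences. It had 2.10, 4.68 and 4.93, lower bounds at the non-pregnant and early pregnant stages. These 4 were the called genes among 9 tested of 11 luteal hormone and receptor genes, beside 2.94% of all genes. None was called on the uterine side, where 4 of the 9 had differences below 0. PCSK1, a protease that cuts prohormones, did not pass (adjusted p = 0.137). It read 65.5, 4848 and 7917 in ovary, under the floor on the non-pregnant array alone, and 2.7, 19.5 and 226 on the uterine arrays. Oxytocin, OXT, which luteal cells of several species make, read 16.2, 5.7 and 4 in ovary and 495, 141 and 5.6 on the uterine arrays and did not pass either (adjusted p = 0.266).

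**Figure D2:**
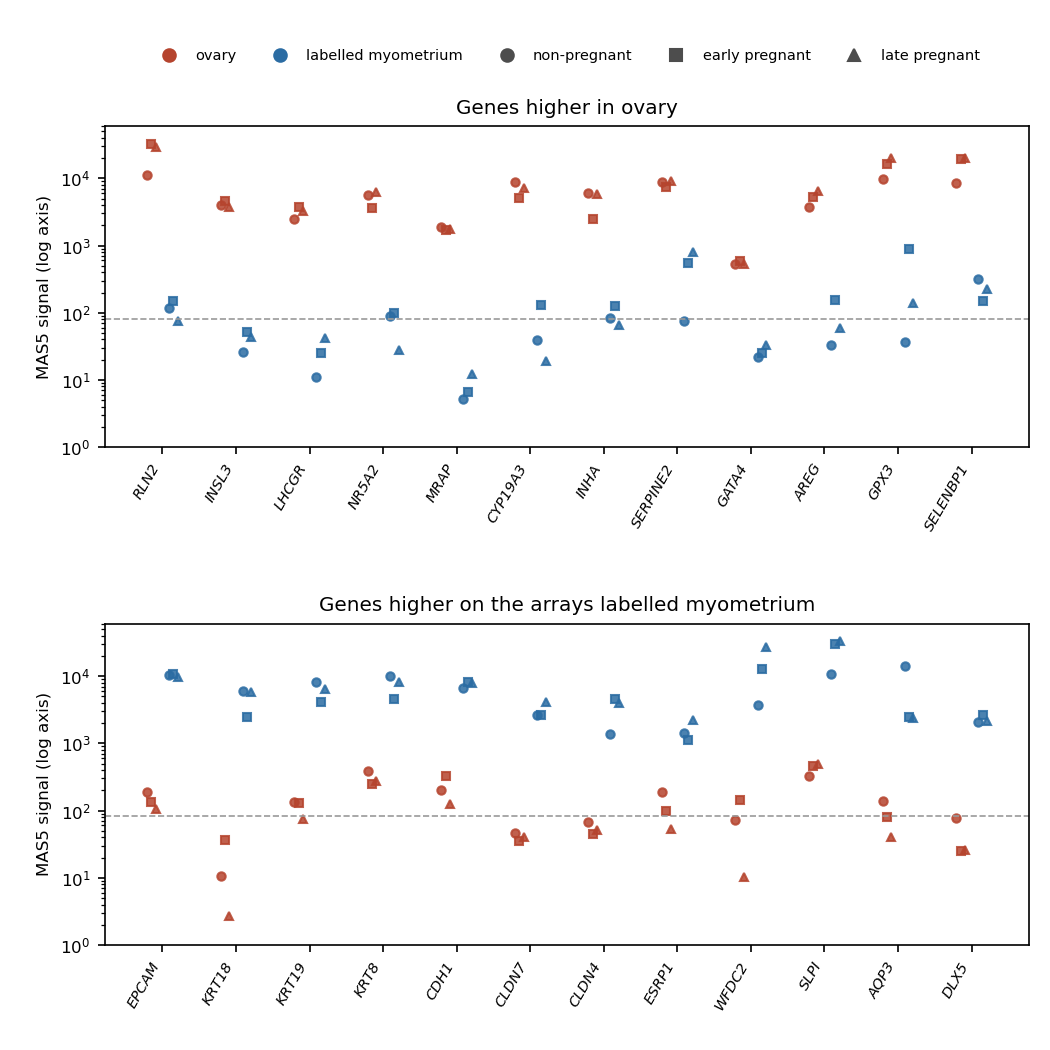
MAS5 signal on a log axis for 12 genes higher in ovary (top) and 12 higher on the arrays labelled myometrium (bottom), 1 point for each array. Red points are ovary and blue points labelled myometrium, marker shapes are the stages, and the dashed line is the floor of 81.7. RLN2 lies between 11029 and 31899.6 in ovary and at or under 150.4 on the uterine arrays, while EPCAM lies at or under 191 in ovary and between 9667 and 10845 on the uterine arrays.

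Steroid-producing cells take up cholesterol from lipoproteins, move it into mitochondria and convert it to progesterone. The uptake receptor SCARB1 read 7072, 7466 and 11213 in ovary and 684, 884 and 387 on the uterine arrays (adjusted p = 0.0118). MRAP, an accessory protein of the melanocortin receptors, read 1875, 1697 and 1761 and 5.2, 6.7 and 12.2, under the floor on every uterine array. FDXR, which passes electrons to the mitochondrial steroid enzymes, was 5.92-fold higher in ovary (2153, 1516 and 1978 against 189, 330.1 and 499.6). The central genes of the pathway were high in ovary but did not pass by their brightest probe sets. STAR, the cholesterol carrier into mitochondria, read 28846, 23450.5 and 25987 in ovary and 13.2, 5573 and 6907 on the uterine arrays (adjusted p = 0.139). CYP11A1, which cleaves the cholesterol side chain, read 10664, 10179.6 and 11227 and 22.1, 1502 and 4452, and HSD3B1, which makes progesterone, 19261, 13015 and 16394 and 64.1, 3101 and 1822, with adjusted p values of 0.112 and 0.0831. A dimmer probe set was called higher in ovary for STAR (difference 4.87, adjusted p = 0.0368) and for HSD3B1 (4.10, adjusted p = 0.0174). In each of the 3 the ovary arrays were even and the uterine arrays split, under the floor outside pregnancy and far above it in pregnancy. Of 14 genes tested in this list of 19, 5 were higher in ovary and 1 on the uterine arrays, and the median difference was 2.44. It was 2.03 when all probe sets of a gene were averaged. The shares of all genes were 2.94% in ovary and 2.52% on the uterine arrays. The list member called on the uterine side was TSPO, a protein of the outer mitochondrial membrane. It read 925, 782 and 642 in ovary and 3470.4, 1495 and 1700.1 on the uterine arrays (adjusted p = 0.047). No gene of cholesterol synthesis passed among 9 tested, with a median difference of 0.51.

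Among sex steroid enzymes, CYP19A3, an aromatase, read 8691, 5059.9 and 7198 in ovary and 39.2, 131 and 19 on the uterine arrays. The pig has several near-identical aromatase genes, and the probe set may not tell them apart. The other tested probe sets named for it had log2 differences of 4.68, 1.70 and -0.45. HSD17B1, which activates oestrogen, read 7505, 4560.0 and 12061 and 66.1, 545 and 14 (adjusted p = 0.0218). AKR1CL1, an aldo-keto reductase, read 15383, 12466 and 15060.1 in ovary and 27.7, 552 and 318 on the uterine arrays by its brightest probe set (adjusted p = 0.0113), whereas its other probe sets had differences of 1.51 and 1.88 and did not pass. HSD17B2, which inactivates oestradiol, read 37, 144 and 400.4 in ovary and 69.9, 9701 and 1591 on the uterine arrays, and SULT1E1, which sulphates oestrogen, 19.8, 17 and 24.3 and 57.4, 3192 and 881. Both were high on the early pregnant uterine array and did not pass (adjusted p = 0.229 and 0.157).

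Granulosa cells surround the oocyte and turn into luteal cells after ovulation. INHA, the inhibin alpha subunit that restrains follicle-stimulating hormone, read 6006, 2465 and 5803 in ovary and 82.1, 124 and 64.8 on the uterine arrays. SERPINE2, a protease inhibitor of follicles, read 8919, 7322 and 9194 and 76.4, 543 and 791, and FST, which binds activin, 4400.3, 2005 and 4219 and 382, 286 and 82. The early pregnant ovary had the lowest signal of INHA, SERPINE2 and FST, yet the tissues did not overlap in any of them. AMH, a hormone of growing follicles, and FSHR, the receptor for follicle-stimulating hormone, were dimmer in ovary. AMH read 226, 209.5 and 395 there and FSHR 337, 296 and 281. Both lay under the floor on every uterine array. In all, 7 of 11 tested granulosa and follicle genes, from a list of 17, were higher in ovary and 0 on the uterine arrays. The shares of all genes were 2.94% and 2.52%. The list had a median difference of 1.89 that was 1.16 with the higher floor of 246.2. FSHR and LHCGR are neighbours in the pig genome, and both were called.

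Transcription factors of the gonad followed the same direction. NR5A2, a nuclear receptor needed for ovulation and luteal function, read 5741, 3572 and 6326 in ovary and 90.5, 97.9 and 27.7 on the uterine arrays. Further probe sets for it had differences from 0.46 to 4.91. Its relative NR5A1 was dimmer and even, at 415, 410.5 and 397 in ovary and under the floor on each uterine array. GATA4 read 533, 588 and 535 and 21.6, 25 and 33.4, although its other tested probe set had a difference of 0.28. FOXO1 read 2821, 2511 and 2358 and 515, 672 and 999.6. These 4 passed (adjusted p = 0.00358, 0.0138, 0.0118 and 0.0295), and with the higher floor NR5A1 did not (adjusted p = 0.0728). GATA6 and TCF21 lay higher in ovary at every stage without passing (adjusted p = 0.0617 and 0.0611). Of the oocyte genes, ZP4, a protein of the egg coat, passed at 346, 254 and 211 in ovary and 40.8, 32.3 and 75.5 on the uterine arrays (adjusted p = 0.0282, and 0.537 with the higher floor). The other 5 tested oocyte genes did not pass, and all 6 had differences above 0.

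Some growth factor and antioxidant enzyme genes, and 2 genes of the nerve list, were also higher in ovary. Of 20 growth factor genes tested, 3 were higher in ovary and 1 on the uterine arrays. Among 6 nerve genes 2 were higher in ovary, with a list median of 0.19. The shares of all genes were 2.94% in ovary and 2.52% on the uterine arrays. AREG, a ligand of the epidermal growth factor receptor that relays the ovulatory signal in follicles, read 3762, 5329.8 and 6584 in ovary and 33.6, 154 and 59.7 on the uterine arrays. DKK3, of the dickkopf family of secreted proteins, read 6819.7, 6661 and 7991 and 758, 576 and 969.7, and the related ligand of AREG, TGFA, 173, 217 and 223 and 53.7, 8 and 9.4. All 3 passed (adjusted p = 0.00358, 0.00427 and 0.0358). GPX3, a secreted glutathione peroxidase, read 9682, 16204 and 19899 and 36.6, 882 and 139 (adjusted p = 0.0115). The glutathione transferase GSTA4 and the rate-limiting subunit of glutathione synthesis GCLC were 10.6-fold and 3.39-fold higher in ovary. GSTA1, whose family members are close in sequence, read 49476, 29115 and 31312 in ovary by its brightest probe set. On the uterine arrays that probe set read 1351, 11109.5 and 1720.5, highest in early pregnancy. Another called probe set (difference 5.67, limma adjusted p = 0.0178) read 22.8, 418 and 1742 there, highest in late pregnancy. A further probe set of GSTA1 did not pass (difference 2.26, limma adjusted p = 0.0781). Of 19 glutathione and detoxification genes tested, 4 were higher in ovary and 0 on the uterine arrays, with a median of 0.47. UCHL1, a ubiquitin hydrolase abundant in neurons, read 3940.4, 4614 and 4223 and 449, 63.6 and 172. The adhesion molecule NCAM1 read 372, 252 and 254 and 128, 40.4 and 80.3. Its limma call ended when its probe sets were averaged (adjusted p = 0.0607) and with a floor at the 25th percentile (0.0502). The Schwann cell gene S100B read 451, 829.9 and 607 and 651, 644 and 521 and did not pass (adjusted p = 0.98). MBP and GFAP of the same list had differences of -1.05 and -0.15 and did not pass.

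Complement and immune genes were mixed. Of 21 complement and coagulation genes tested, 5 were higher in ovary and 0 on the uterine arrays, beside 2.94% and 2.52% of all genes. C7, a component of the membrane attack complex, read 1157, 5773 and 1993 in ovary and 122, 300.3 and 199 on the uterine arrays, and C4A 7266, 8379 and 6544 and 1893, 2172 and 411. The early pregnant ovary was highest for both. PLAT, the tissue plasminogen activator, C3 and PROS1 were 3.77-fold, 2.77-fold and 2.5-fold higher in ovary. The list median was 0.40, from 0.78 at the non-pregnant to -0.25 at the late pregnant stage. CCL21, a chemokine of lymphatic vessels, read 2099, 4146 and 4118 in ovary and 192, 21.7 and 186 on the uterine arrays (adjusted p = 0.0118), whereas the lymphatic receptor LYVE1 read 841, 826 and 502 and 254, 424 and 1522 and did not pass (adjusted p = 0.788). No macrophage gene of 12 tested, no lymphocyte gene of 12 and no interferon-induced gene of 18 passed by limma. The lymphocyte genes had a median of -1.49 at the non-pregnant and 0.43 at the late pregnant stage. JCHAIN, which joins secreted antibodies, read 505, 194 and 386 in ovary and 6347, 1224 and 96.6 on the uterine arrays, highest on the non-pregnant uterine array, and did not pass (adjusted p = 0.487).

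On the uterine arrays the genes that hold epithelial cells together stood out at every stage. CDH1, the cadherin of epithelial junctions, read 204, 322 and 127 in ovary and 6715, 8192 and 7981 on the uterine arrays. OCLN, of the tight junction, read 152, 126 and 126 and 2334, 3411 and 3926, and the claudins CLDN7 and CLDN4 2673, 2638 and 4069.9 and 1384, 4612 and 3933 on the uterine arrays and under the floor on every ovary array. The ranges of the tissues did not come near each other in these genes. Of 30 genes of junctions and polarity, 16 were on the array and 14 were tested. Of these, 10 were higher on the uterine arrays and 0 in ovary, beside 2.52% and 2.94% of all genes. The list had a median difference of -3.39, and the median by stage was -3.69, -3.38 and -3.63. DSP, of desmosomes, and MYO5B, a motor of apical transport, were 15.2-fold and 11.5-fold higher on the uterine arrays. MAL2, an apical transport protein, did not pass, with 642, 1508 and 3416 in ovary and 3589, 8777 and 3297 on the uterine arrays (adjusted p = 0.153). The late pregnant pair overlapped there. OCLN had other probe sets with differences of -0.21 and -2.26, and CDH1 one of -3.34.

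Keratins and the regulators of epithelial identity went the same way. KRT8 and KRT19 read 9978, 4496 and 8210.5 and 8236, 4084 and 6433 on the uterine arrays against 383, 249 and 279 and 132, 129 and 75.9 in ovary. With KRT18 they made 3 of the 4 tested keratins, beside 2.52% of all genes higher on the uterine side. The fourth, KRT10 of stratified epithelia, did not pass (difference 0.64, limma adjusted p = 0.289). The early pregnant uterine array had the lowest signal of all 3 simple keratins. ESRP1, an epithelial splicing factor, read 186, 98.5 and 53.9 in ovary and 1431, 1105 and 2216 on the uterine arrays, and the ETS factors ELF3 and EHF 476, 492 and 933 and 418, 483 and 244 on the uterine arrays, under the floor in ovary. The membrane proteases ST14 and PRSS8 were at least 15.3-fold and at least 8.49-fold higher on the uterine arrays, and their inhibitors SPINT1 and SPINT2 at least 6.23-fold and 17-fold. SPINT2 had another probe set with a difference of -0.58. In all, 9 of 13 tested regulator and protease genes (median -3.00) were higher on the uterine arrays and 0 in ovary, beside 2.52% and 2.94% of all genes. The median of this list was -2.38 at the non-pregnant, -2.89 at the early and -3.51 at the late pregnant stage. The trophoblast gene PAG6 read 75.2, under the floor, on the non-pregnant uterine array and 22022 and 28500.2 on the pregnant ones. The share of trophoblast in the epithelial signals was not tested.

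**Figure D3:**
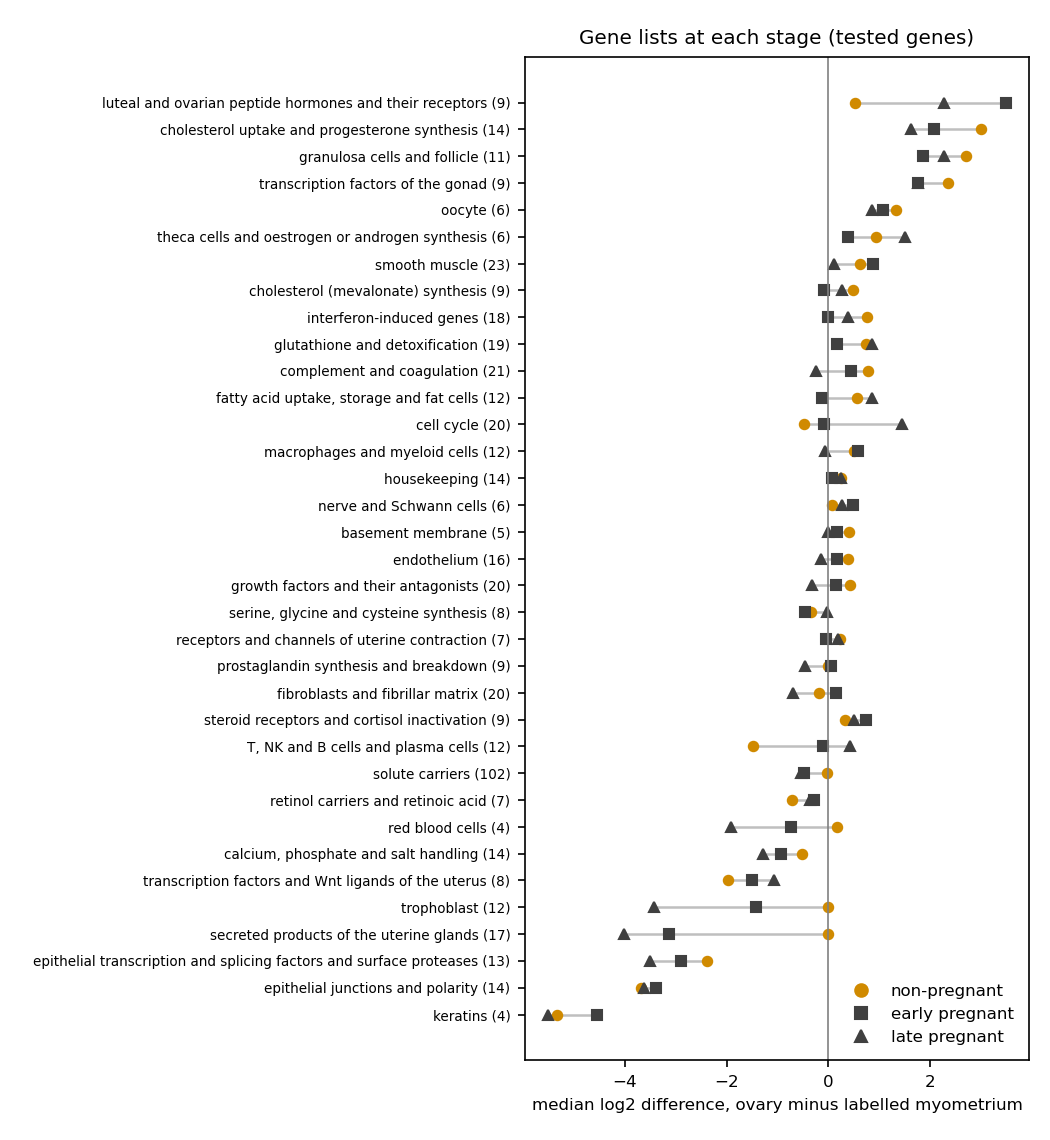
Median log2 difference, ovary minus labelled myometrium, of the tested genes of each list with at least 4, at the non-pregnant (orange circles), early pregnant (dark squares) and late pregnant (dark triangles) stage. The number of tested genes is in brackets. The epithelial junction list stays between -3.69 and -3.38 at all stages, whereas the list of uterine gland products goes from 0.00 at the non-pregnant to -4.01 at the late pregnant stage.

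Secreted products of the uterine glands divided into those present at every stage and those present in pregnancy. WFDC2, a secreted protein with protease inhibitor domains, read 72.9, 144 and 10.2 in ovary and 3678, 12886 and 26920.0 on the uterine arrays. SLPI, a secreted protease inhibitor of mucosal surfaces, read 324, 466 and 486 and 10750.3, 30569 and 32821. CST6, a cystatin, read 16, 131 and 8 and 579.9, 8701 and 16597. All 3 passed (adjusted p = 0.007, 0.00358 and 0.029), and for each the uterine signals lay above every ovary signal and were lowest outside pregnancy. WFDC2 is not on the list of gland products. The retinol carrier RBP4 read 12.9, 568 and 40 in ovary and 372, 22308 and 18751 on the uterine arrays (adjusted p = 0.0482). Its call ended with quantile normalization (0.057), with the higher floor (0.103) and without the stage block (0.107), and its other probe set had a difference of 0.33. Of 17 gland genes tested, SLPI, CST6, RBP4 and S100G, described below, were higher on the uterine arrays and 0 in ovary. The shares of all genes were 2.52% and 2.94%, and the list median was -2.09. ACP5, the uteroferrin that carries iron to the conceptus, and UABP-2 did not pass (adjusted p = 0.208 and 0.131). UABP-2 read 63.8, 26905 and 28361 on the uterine arrays, and ACP5 559, 21477 and 31717.

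Some transporters and calcium-handling genes were higher on the uterine side. S100G, a calcium-binding protein, read 9.3, 4.4 and 21.8 in ovary and 18568, 1345 and 9804 on the uterine arrays, lowest in early pregnancy. AQP3, a channel for water and glycerol, read 137, 80.8 and 40.7 and 14148, 2454 and 2356, highest outside pregnancy. Both passed (adjusted p = 0.0141 and 0.00687), as did the creatine kinase CKB (0.00868, 14.8-fold higher). TRPV6, a calcium channel, read 57.1, 42.4 and 22.5 and 167, 4761 and 5126 and did not pass (adjusted p = 0.0761). Of 123 solute carrier genes on the array, 102 were tested, of which 8 were higher on the uterine arrays and 2 in ovary, beside 2.52% and 2.94% of all genes, with a median of -0.48. SLC15A2, a peptide transporter, read 34.5, 30.8 and 25.6 and 851, 3852 and 6312, and SLC39A2, of the zinc transporters, 130.0, 159 and 67.8 and 1022, 7878 and 4706. SLC3A1, a subunit of a cystine transporter, read 101, 79.4 and 89.3 and 659.5, 2878 and 3589.7, but its other probe set had a difference of 0.36. SLC44A4, a choline transporter family member, and SLCO1A2, of the organic anion transporters, were at least 16.5-fold and at least 6.54-fold higher. The 2 in ovary, a share under that of all genes, were SLC41A1, of magnesium transport, and SLC5A4, of the glucose transporter family, 5.19-fold and at least 4.52-fold higher. Further probe sets of SLC41A1 had differences of 0.07, 1.92 and 0.78. Its limma call ended when its probe sets were averaged (adjusted p = 0.0629).

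Developmental transcription factors of the uterus were few on the array. MSX1, a homeobox factor of the receptive endometrium, read 119, 45.5 and 12.2 in ovary and 1708, 293 and 820.0 on the uterine arrays, highest outside pregnancy (adjusted p = 0.0262). HOXA9 read 44.9, 55.2 and 72.2 and 327, 310.1 and 595 (adjusted p = 0.0209). DLX5, a homeobox factor, read 77.7, 25.3 and 26.1 and 2063, 2598 and 2127, nearly level over the stages (adjusted p = 0.00358). GATA2 read 110.5, 282 and 117 and 887, 811 and 1243 (adjusted p = 0.0326), while its other probe set had a difference of -0.79. FOXA2, a regulator of uterine glands, read 1.1, 13.5 and 2.2 and 694, 461 and 155 and did not pass (adjusted p = 0.0598). With the higher floor MSX1 (adjusted p = 0.144) and HOXA9 (0.176) did not pass either. On the list of uterine factors 2 of 8 tested genes, MSX1 and HOXA9, were higher on the uterine arrays and 0 in ovary. The share of all genes was 2.52% on the uterine side. DLX5 and GATA2 are not on that list, and its members HOXD10 (difference 0.05) and MEIS1 (-0.77) did not pass. The list median was -1.53, and -0.77 with the higher floor.

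Stroma and vessels separated the organs little, apart from particular matrix genes. LUM, a proteoglycan that spaces collagen fibrils, read 575, 1854 and 1283 in ovary and 15608, 12122 and 8087 on the uterine arrays, highest outside pregnancy (adjusted p = 0.0185). MFAP5, of elastic microfibrils, read 13.5, 132 and 53.7 and 675, 614 and 4084, highest in late pregnancy (adjusted p = 0.043). The other 18 of 20 tested fibroblast and matrix genes did not pass, among them COL1A2 (difference 0.29) and DCN (-0.15), and the median was -0.15. Of 16 endothelial genes 0 passed by limma, with a median of 0.18. PECAM1, an adhesion protein of endothelium, read 1744, 1885 and 1758 and 1111, 1888 and 2199.9. Of the remaining lists, ion transport had 3 of 14 genes higher on the uterine arrays. Serine synthesis had 1 of 8 and retinoid handling 1 of 7 on that side. In ovary the theca genes had 2 of 6 higher, lipid storage 1 of 12, contraction receptors 1 of 7 and steroid receptors 1 of 9. The shares of all genes were 2.52% on the uterine arrays and 2.94% in ovary. A single call in so short a list says little about its function. Housekeeping genes had a median of 0.19, and 1 of 14, the transferrin receptor TFRC, was higher on the uterine arrays (79.3, 73.7 and 62.6 and 224, 1296 and 623, adjusted p = 0.0425).

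Some genes of the trophoblast, the outer cells of the placenta, lay under the floor on the non-pregnant uterine array and high on the pregnant ones. PAG6, a pregnancy-associated glycoprotein, read 36.6, 239.8 and 18.8 in ovary and 75.2, 22022 and 28500.2 on the uterine arrays, and the transcription factor GATA3 67, 116 and 90.2 and 59.2, 3168 and 2778. Other members of the list did not follow this pattern. GCM1 read 88.7, 86.2 and 78.2 on the uterine arrays, near the floor at every stage, and PEG10 351, 435 and 8302. HBE1, an embryonic globin and not a trophoblast gene, read 44.3, 20201 and 64.1 on the uterine arrays and at or under 37.6 in ovary. It lay above the floor on the early pregnant uterine array alone and was not tested. The sum of the 14 trophoblast genes on the array was 3121, 68417 and 91643 on the uterine arrays and between 9078 and 11561 in ovary, where CYP19A3 made up most of it. Of the 12 tested, GATA2 was higher on the uterine arrays and CYP19A3 in ovary, beside 2.52% and 2.94% of all genes. PAG6 and GATA3 did not pass (adjusted p = 0.137 and 0.138). Their part in the difference between the organs in pregnancy was not tested.

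Ranked by the smallest of their 3 stage differences, a measure of what holds at every stage, the leading ovarian genes were RLN2 (least log2 difference 6.54), INSL3 (5.51), CYP19A3 (5.27) and NR5A2 (5.19). AREG (5.12), LHCGR (4.92) and SELENBP1 (4.77) came next. Many of these values are lower bounds with no exact order: INSL3 and LHCGR lay at the floor on all uterine arrays and CLDN7 and KRT18 on all ovary arrays, and of the genes named in the ranking only SELENBP1, EPCAM and SLPI had no array at the floor. SELENBP1, a selenium-binding protein, read 8559.6, 19604 and 19835 in ovary and 313, 151 and 224 on the uterine arrays. CAPNS1, the small calpain subunit, stood in the same ranking (3.70) at 23500.3, 29465 and 29280.2 and 75, 2269.8 and 524, but its other probe set had a difference of 0.19. On the uterine side EPCAM (-5.74), WFDC2 (-5.49), SLPI (-5.05) and CLDN7 (-5.01) led, followed by KRT19 (-4.99), KRT18 (-4.92) and AQP3 (-4.85). Of 95 called genes with a further tested probe set, that probe set had the same sign in 92 and was itself called in the same direction in 43.

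**Figure D4:**
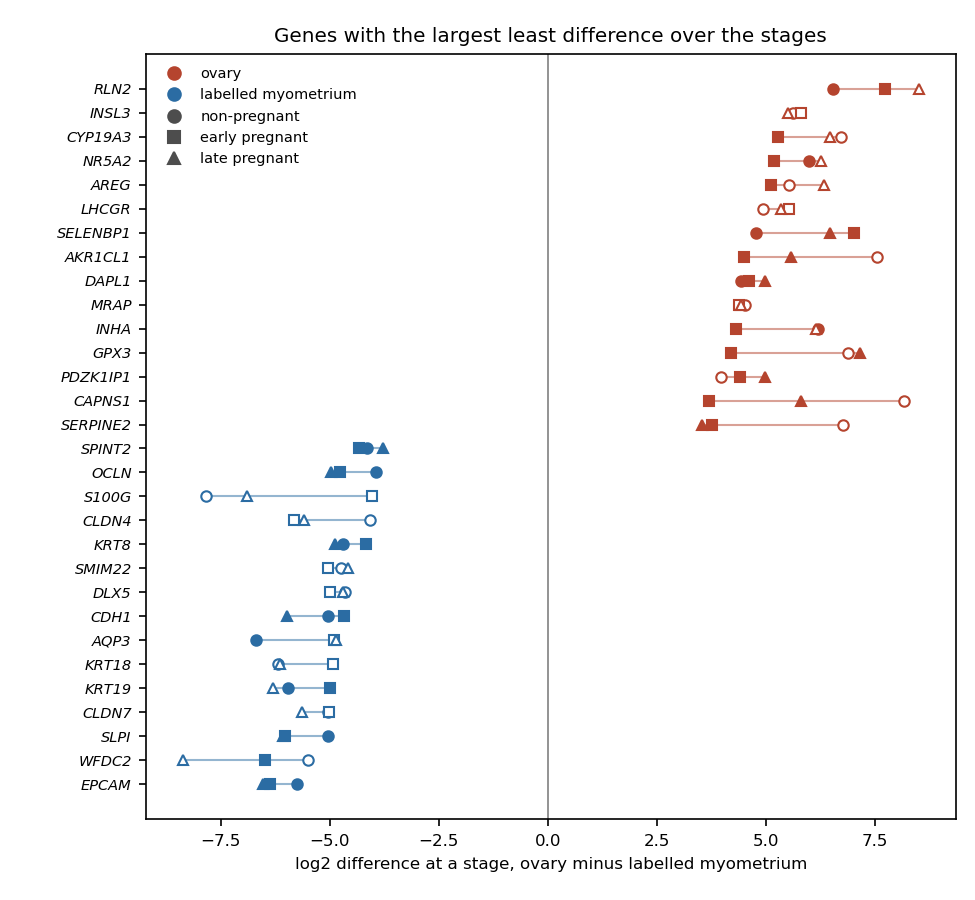
Log2 difference at each stage, ovary minus labelled myometrium, for the 15 genes on each side with the largest least difference, 1 marker shape for each stage. Red genes were higher in ovary and blue genes on the arrays labelled myometrium, and open markers have the dimmer array at the floor, so that the difference there is a lower bound. The differences of MRAP and DLX5 are lower bounds at every stage, and those of CAPNS1 go from 3.70 to 8.17, the last a lower bound.

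Further called genes fell outside the lists and were picked after their values were seen. ADAMDEC1, a protease of the ADAM family, read 9201, 11288 and 14843 in ovary and 1.5, 23.4 and 1304 on the uterine arrays, while its neighbour in the genome ADAM28 read 127, 104 and 95.5 and 383, 2121 and 677. The tissues were thus reversed between these adjacent genes, both past the test (adjusted p = 0.0168 and 0.0444). ADAM28 and ITIH3 did not pass with quantile normalization. Of 1950 pairs of adjacent protein-coding genes with both members tested, by the order of the Sscrofa11.1 assembly, 11 had both called, 10 of them in the same direction. PPAT and PAICS, which catalyse steps of purine synthesis, were 7.35-fold and 7.15-fold higher in ovary. KRT8 and KRT18, CLDN3 and CLDN4, and the cell adhesion genes MPZL2 and MPZL3 were adjacent pairs higher on the uterine arrays. ITIH3 and ITIH4 were a pair higher in ovary. The tight junction gene CLDN11 went against the other claudins, at 5531, 10275 and 11055 in ovary and 1134, 302 and 92.8 on the uterine arrays (adjusted p = 0.0352). On the uterine side the matrix protease MMP7 read 1829, 988 and 722, the mucin MUC4 496, 1379 and 821 and the endocytic receptor LRP2 1828, 1439 and 1058, each under the floor on every ovary array.

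For some genes the sign of the difference was not the same at every stage. In 293 probe sets the difference was 2-fold or more one way at a stage and 2-fold or more the other way at another. SPP1, osteopontin, which binds integrins at the contact of uterus and conceptus, read 6637, 3188 and 1751 in ovary and 1297, 28071 and 28163 on the uterine arrays. ALPL, an alkaline phosphatase, turned the other way, with 437, 979.5 and 1901 in ovary and 3019.9, 226 and 74.2 on the uterine arrays. For SPP1 the ovary was higher outside pregnancy alone, and for ALPL in pregnancy alone. Cell cycle genes had a median difference of -0.48 at the non-pregnant, -0.09 at the early and 1.44 at the late pregnant stage. TOP2A, a topoisomerase of dividing cells, read 1927, 1824 and 3159 in ovary and 4122, 1854 and 501 on the uterine arrays, and 0 of 20 tested cell cycle genes passed by limma. The steroid receptors ESR1 and PGR read 902, 98.6 and 67.8 and 1498, 216 and 99.4 on the uterine arrays and 92.4, 233 and 231 and 128, 142 and 128 in ovary. Both were high on the non-pregnant uterine array and neither passed (adjusted p = 0.936 and 0.388). Each stage has 1 array per tissue, so these changes with stage have no test.

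**Figure D5:**
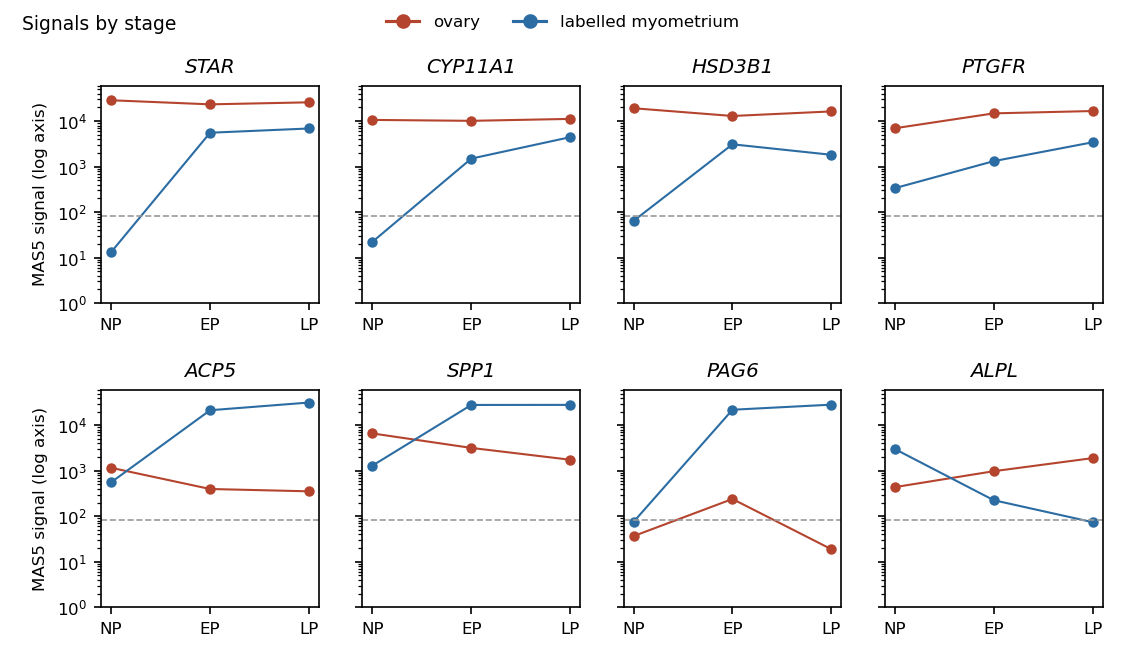
MAS5 signal on a log axis at the non-pregnant (NP), early pregnant (EP) and late pregnant (LP) stage for 8 genes, 1 array for each point. Red is ovary, blue is labelled myometrium, the dashed line is the floor of 81.7, and lines join arrays of different sows. STAR stays between 23450.5 and 28846 in ovary and goes from 13.2 to 6907 on the arrays labelled myometrium, and the lines of ACP5, SPP1 and ALPL cross.

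As a check on the arrays, 57.4% to 61.6% of probe sets lay above the floor. The log2 signal of the hybridisation controls deviated from its average over arrays by 0.48 in the non-pregnant ovary and by -0.27 to 0.06 elsewhere. Over the 11733 probe sets above the floor on all arrays, ovary arrays correlated with each other at 0.953 to 0.967, uterine arrays at 0.835 to 0.928, and arrays of different tissues at 0.831 to 0.874. The lowest value among the uterine arrays, between the non-pregnant and the late pregnant one, lay within the range between tissues.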

How the data were processed

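The authors' deposited values are MAS5 signals, linear intensities per probe set on Affymetrix pig arrays, per the submitters' processing notes. The trimmed mean was 500.1 on all 6 arrays. Its other settings are not stated in the labels. From 24123 probe sets, 124 controls were left out. Of the rest, 10069 had 1 gene symbol in the platform annotation, 198 several and 13732 none. Signals were raised to a floor of 81.7, the 40th percentile, and log2 taken. The 15882 probe sets above it on at least 2 arrays were fitted with limma 3.58.1 (R 4.3.3), tissue plus stage, with an intensity trend and Benjamini-Hochberg adjustment. A gene is represented by its brightest probe set by mean signal. The fit was tested on simulated data.

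Genes were named by rule: the 5 markers, the 15 on each side with the largest least difference, the leading called and first uncalled members of each list, large differences that did not pass, and genes that turn with stage. Further list members and genes were added after their values were seen. Members and lists were chosen with earlier results of these data known. The p-values measure agreement across 3 stage pairs, not across animals, and the number of arrays limits precision. Alternatives covered the floor, a pseudocount of 16, scaling, filter, trend, block, leaving out a stage and averaging all probe sets of a gene.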

Additional observations from a re-analysis of the deposited data

Results flagged for a closer look

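In 16 of the named genes the tissue difference was 2-fold or more in one direction at a stage and in the other direction at another. With 1 array for each tissue and stage, the difference between stages was not tested. The range of the 3 differences on the log2 scale was 7.545 for ACP5, 6.363 for SPP1, 8.389 for HPSE and 6.554 for FNTA, each higher in ovary at the non-pregnant stage and on the uterine arrays at both pregnant stages. FNTA has another probe set with a difference of 0.29. For ALPL the range was 7.33, in the opposite order of signs. For PEG10, which read 8302 on the late pregnant uterine array and at or under 973 on the others, the range was 5.962. For DPPA5, which read 24719.6 on the early pregnant uterine array and at or under 701 on the others, it was 7.689. JCHAIN (range 5.649), ESR1 (4.789), CCNB1 (4.102) and TOP2A (3.753) were higher on the uterine arrays at the non-pregnant stage and in ovary at the late pregnant stage. PDPN (4.147), FABP4 (3.834), IGFBP2 (3.602), LYVE1 (3.326) and CD14 (2.151) were higher in ovary at the non-pregnant stage and on the uterine arrays at the late pregnant stage.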

How the results depend on the processing

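The calls were sensitive to the number of stages and to the handling of dim probe sets. With the floor at the 60th percentile, 298 probe sets were higher in ovary and 179 on the uterine arrays by limma, and 312 and 202 were 2-fold apart at all 3 stages. Testing every probe set, dim ones included, limma called 0 (2782 had an unadjusted p under 0.05). Requiring signals above the floor on all 6 arrays left 364 higher in ovary and 220 on the uterine arrays. The reported fit pairs the arrays by stage, and without the stage block 715 and 499 were higher. At 4-fold, 132 and 147 probe sets were apart at all 3 stages. Leaving out the arrays of a stage gave 0 to 138 probe sets higher in ovary and 0 to 260 on the uterine arrays. With the filter applied to the 4 arrays left, an alternative chosen after seeing the data, it gave 28 to 1012 and 28 to 1036. The cause was not tested. ESR1 had a difference of -0.18, and of -1.02 to 1.37 when the arrays of a stage were left out, past the threshold at 1.37 (adjusted p = 0.0308, without the non-pregnant arrays and with that filter).

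All 98 named genes past the test kept their direction under each alternative that tested them. All 98 lost their call without the early pregnant arrays and with no filter, 44 without the late pregnant and 41 without the non-pregnant arrays. With the filter on the 4 arrays left, 68, 13 and 1 lost it without the early pregnant, late pregnant and non-pregnant arrays. Quantile normalization ended 4 calls, averaging all probe sets of a gene 5, no intensity trend 8 and no stage block 3, while median centring and the pseudocount ended 0 of them by limma. The comparison of promoter motifs was not run, since no promoter sequences were used here.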

Other observations

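Several genes outside the groups above had large differences that did not pass. On the uterine side BPI, an antibacterial protein, read 199, 179 and 89.5 in ovary and 118, 3553 and 17907 on the uterine arrays (adjusted p = 0.217 by limma). PHGDH, the first enzyme of serine synthesis, read 325, 182 and 252 and 13680.1, 436 and 1079.7 (adjusted p = 0.105). BPI was high on the pregnant uterine arrays and PHGDH on the non-pregnant one. In ovary STC1, a secreted glycoprotein, read 2183, 1599 and 1339 against 109.5, 749 and 170.3 on the uterine arrays (adjusted p = 0.0636), while another of its probe sets was called higher in ovary (difference 1.89, adjusted p = 0.0219). The chemokine CXCL12 read 1003, 1434 and 697 against 737, 101 and 105 (adjusted p = 0.113).

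TBXAS1, thromboxane synthase, was the called gene among 9 tested genes of prostaglandin synthesis, beside 2.94% of all genes in ovary. It read 460.3, 416 and 386 in ovary and 60, 13.1 and 123 on the uterine arrays (limma adjusted p = 0.0224). FGFR2, a receptor of fibroblast growth factors, read 106, 122 and 172 and 352, 1035 and 911 (adjusted p = 0.0269). Both lost their calls with the higher floor.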
